A study of Mus musculus with 4 samples.

Results

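The 27 genes described here encode cholesterol synthesis enzymes, the SREBP2 control proteins and 4 sterol carriers, and their mRNA was followed in primary neural stem cells with and without Seh1 depletion. They were chosen by symbol, from their place in the pathway, with earlier results of these data known. All 27 were found among 17621 genes. Seh1 (gene Seh1l) is a protein of the nuclear pore's Y complex and of GATOR2, a regulator of mTORC1. The cells came from the cortex of mice at postnatal day 0. iKO cells carried floxed alleles of Seh1 together with the transgene that the labels call cmv-cre-ert, a recombinase driven by a CMV promoter and fused to a part of the estrogen receptor. Ctrl cells carried the floxed alleles alone (Seh1 f/f). Both genotypes were sampled 3 days after EGF and bFGF were taken away, which sets the cells to differentiate (day 3), and in growth medium with both factors (day 0). The sources used here give neither the number of mice behind a culture nor the treatment with an inducer. Ctrl cells have no recombinase, so its presence cannot be told apart from the loss of Seh1.

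There was 1 library per group, so the differences below carry no spread between cultures and no p-value. The day 3 libraries held 19611788 (iKO) and 19745921 (Ctrl) expected counts, and the day 0 libraries 20625897 (iKO) and 21040590 (Ctrl). Levels are CPM, read counts scaled to library size with TMM factors, and the log2 ratio has 1 CPM added to both levels. A fold is the plain ratio of CPM, and the range in brackets behind it is an exact 95% interval that covers counting error only. The targeted gene Seh1l measured 11.03 CPM in iKO cells against 33.2 CPM in Ctrl cells on day 3, and 19.2 CPM in iKO cells against 40.3 CPM in Ctrl cells on day 0.

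Cholesterol is built from acetyl-CoA in the endoplasmic reticulum: mevalonate is made first, then isoprenoid units, then squalene, which is closed to lanosterol and trimmed to cholesterol. The transcription factor SREBP2 turns on the genes of nearly every step. When sterols are scarce, SCAP carries SREBP2 from the endoplasmic reticulum to the Golgi, where it is cleaved and freed. When sterols are plentiful, INSIG proteins hold SCAP and SREBP2 back. In the brain, where plasma lipoproteins do not cross the blood-brain barrier, cells depend on local synthesis, and myelinating oligodendrocytes make much of it.

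Transcripts of the pathway were lower in iKO than in Ctrl cells at both days. Of the 27 genes, 23 were below Ctrl at both days, against 36.9% of the 12976 genes that averaged at least 1 CPM, and all 19 enzymes were among the 23. On day 3, 24 of 27 were below Ctrl, against 51.3% of all genes, and on day 0 the number was 23, against 56.5%. The median log2 ratio of the 27 genes was -0.67 on day 3 and -0.61 on day 0, where the median of all genes was -0.01 and -0.06. On day 3, 6 of 27 were at least 2-fold lower, against 4.78% of all genes, and 0 were at least 2-fold higher, against 6.28%. On day 0, 2 of 27 were at least 2-fold lower, against 0.331%, and 0 were at least 2-fold higher, against 2.67%. At a limit of 1.5-fold, 16 genes were lower and 2 higher on day 3, against 11.3% and 15.1% of all genes. On day 0 that limit took 14 lower and 0 higher, against 5.5% and 8.91%. The comparisons on the 2 days share no library. The genes were chosen for a shared pathway, so they are not independent of each other. Earlier results of these data were known at that choice, so the shares above only describe the group.

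**Figure D1:**
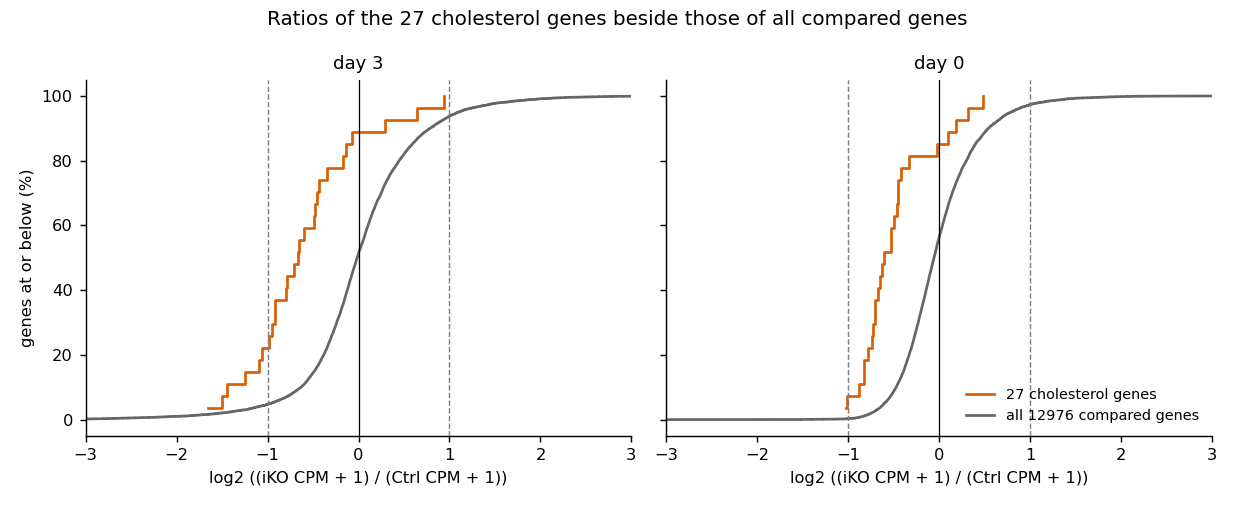
Cumulative share of genes (vertical axis, percent) at or below each log2 ratio of iKO to Ctrl (horizontal axis) on day 3 (left) and day 0 (right), for the 27 cholesterol genes (orange) and all 12976 compared genes (grey); dashed lines mark 2-fold. The orange curve lies left of the grey one over most of its length, with medians of -0.67 against -0.01 on day 3 and -0.61 against -0.06 on day 0.

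Summed over the 19 enzymes, levels were 1751 CPM in iKO and 3284 CPM in Ctrl on day 3, a sum 1.87-fold lower (1.85 to 1.90). On day 0 the sum was 2747 CPM in iKO and 4400 CPM in Ctrl, 1.60-fold lower (1.59 to 1.62). The interval of the ratio lay below 1 for 18 of the 19 enzymes at each day, the exceptions being Ebp on day 3 and Ggps1 on day 0. In bulk RNA, fewer cells of a type and less RNA per cell cannot be told apart. The direction held for all 19 enzymes under each other scaling, except that Ggps1 was above Ctrl on day 0 when library totals or FPKM were used. Exons or near-identical stretches are shared with another annotated gene by 12 of the 27 genes, whose counts are uncertain to that extent. These are Acat2, Hmgcs1, Idi1, Fdps, Ggps1, Fdft1, Lss, Cyp51, Tm7sf2, Scap, Tmem97 and Npc1.

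Cell type and proliferation markers also differed between the genotypes. Over all genes, 4.78% were at least 2-fold lower and 6.28% higher on day 3, and 0.331% and 2.67% on day 0. All 12 neural stem and progenitor markers were above 1 CPM on average, with summed levels between 7497 and 11436 CPM. Their medians were -0.15 on day 3 and -0.10 on day 0, but single markers differed more. At least 2-fold lower was Hes5, with log2 ratios of -2.79 on day 3 and -1.02 on day 0. Prom1 was at least 2-fold higher on day 3, at 1.42. Of 12 oligodendrocyte lineage genes compared, 10 were at least 2-fold lower on day 3 and 4 on day 0, with medians of -1.82 on day 3 and -0.37 on day 0. Their summed level was 3609 CPM in iKO and 5211 CPM in Ctrl on day 3, and 4280 CPM in iKO and 4787 CPM in Ctrl on day 0. Of 10 astrocyte genes 1 was at least 2-fold higher on day 3 and 4 on day 0, with medians of 0.55 on day 3 and 0.96 on day 0. Of 9 neuronal genes compared 5 were at least 2-fold lower on day 3 and 1 higher on day 0. All 13 proliferation genes were at least 1.5-fold lower on day 0, against 5.5% of all genes. The 13 then had a median of -0.77 and a sum of 2800 CPM in iKO and 4786 CPM in Ctrl. On day 3 their median was -0.10, with a sum of 259 CPM in iKO and 267 CPM in Ctrl. Microglia and endothelium markers summed to at most 9.11 and 2.60 CPM in any library, and fibroblast and mural markers to at most 16.8 CPM. Between 1 and 3 of the 6 microglia markers and 1 of the 5 endothelium markers had no count in each library. Of 4 ependyma markers 2 were compared, and iKO exceeded Ctrl by 2-fold or more for both on each day. The part of these differences in the levels of the 27 genes was not tested.

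Stretches upstream of the transcription start are shown for 6 genes, because most of the group was lower in iKO. The genes are from both ends of its range on day 3, and none is from the middle. They are the 200 bases that end just before the start used in the RefSeq promoter table, build GRCm38.p6, 5' to 3' on the strand of the gene. For Lss that start lies inside the annotated gene, so the end of its stretch is within the gene. Hmgcs1, Idi1, Mvd, Lss and Acat2 were among the 6 genes at least 2-fold lower on day 3, and Scap was higher in iKO at both days. Capitals mark the CCAAT box (CCAAT, or ATTGG on the other strand), the GC box (GGGCGG or CCGCCC) and the sterol regulatory element TCACNCCAC. SREBP2 binds sterol regulatory elements and is known to act with NF-Y, which binds CCAAT boxes, and with Sp1, which binds GC boxes.
Hmgcs1, chr13:119690151-119690350, plus strand: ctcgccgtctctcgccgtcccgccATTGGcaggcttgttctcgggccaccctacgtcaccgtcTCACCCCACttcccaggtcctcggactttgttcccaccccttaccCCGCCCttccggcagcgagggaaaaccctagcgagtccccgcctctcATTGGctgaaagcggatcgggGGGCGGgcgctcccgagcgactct
Idi1, chr13:8885406-8885605, plus strand: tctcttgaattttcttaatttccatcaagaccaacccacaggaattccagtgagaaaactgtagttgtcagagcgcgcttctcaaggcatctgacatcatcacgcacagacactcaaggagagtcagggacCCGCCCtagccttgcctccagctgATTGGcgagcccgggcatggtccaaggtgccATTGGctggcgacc
Mvd, chr8:122443423-122443622, minus strand: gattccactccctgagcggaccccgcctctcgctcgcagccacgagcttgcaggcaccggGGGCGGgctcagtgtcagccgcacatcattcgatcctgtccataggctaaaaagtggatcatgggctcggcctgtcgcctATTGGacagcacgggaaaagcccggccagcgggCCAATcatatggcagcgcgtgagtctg
Lss, chr10:76531405-76531604, plus strand: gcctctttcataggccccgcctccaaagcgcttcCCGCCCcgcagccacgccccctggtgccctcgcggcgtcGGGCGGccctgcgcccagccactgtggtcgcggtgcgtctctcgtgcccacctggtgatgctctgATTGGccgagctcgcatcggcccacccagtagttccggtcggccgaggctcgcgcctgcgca
Acat2, chr17:12960726-12960925, minus strand: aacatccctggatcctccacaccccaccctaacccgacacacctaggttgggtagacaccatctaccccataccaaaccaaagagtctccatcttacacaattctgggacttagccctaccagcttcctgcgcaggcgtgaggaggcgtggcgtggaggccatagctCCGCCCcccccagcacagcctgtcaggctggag
Scap, chr9:110333088-110333287, plus strand: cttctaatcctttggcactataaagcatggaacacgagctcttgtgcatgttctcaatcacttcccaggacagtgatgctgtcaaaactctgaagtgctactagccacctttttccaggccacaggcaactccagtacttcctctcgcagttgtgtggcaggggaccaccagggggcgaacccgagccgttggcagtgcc

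In these stretches Hmgcs1 held the sterol regulatory element, its first base at position -137 from the start, together with 2 CCAAT boxes and 2 GC boxes. Idi1 and Mvd each held 2 CCAAT boxes and 1 GC box, Lss held 1 CCAAT box and 2 GC boxes, and Acat2 held 1 GC box only. The printed Scap stretch, the first of 2 annotated promoters, held no match. A GC box of that promoter began at position 39, past the printed end, and others at -30, 15 and 38 in the second promoter. Over windows from 250 bases before to 50 after the start, 22 of the 27 genes had at least 1 promoter in the RefSeq table, 28 in all. Fdps, Fdft1, Sqle, Stard4 and Npc1 had none there. A CCAAT box on either strand was found for 20 of 22 genes (all but Acat2 and Scap), against 43.5% of 10349 compared genes and 37.4% of 32851 promoters. A GC box was found for 20 of 22 (all but Pmvk and Ggps1), against 69.9% of compared genes and 35.7% of promoters. The element TCACNCCAC was found in Hmgcs1 alone, 1 of 22, against 1.37% of compared genes and 1.24% of promoters. No match overlapped another. Of 44 CCAAT matches, 32 began between positions -150 and -1, in 19 of the genes. That share was not taken over other promoters, so it is not known to be particular to these genes. A match is a run of letters and not a measured site, and no match says only that these letters were not in the window.

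**Figure D2:**
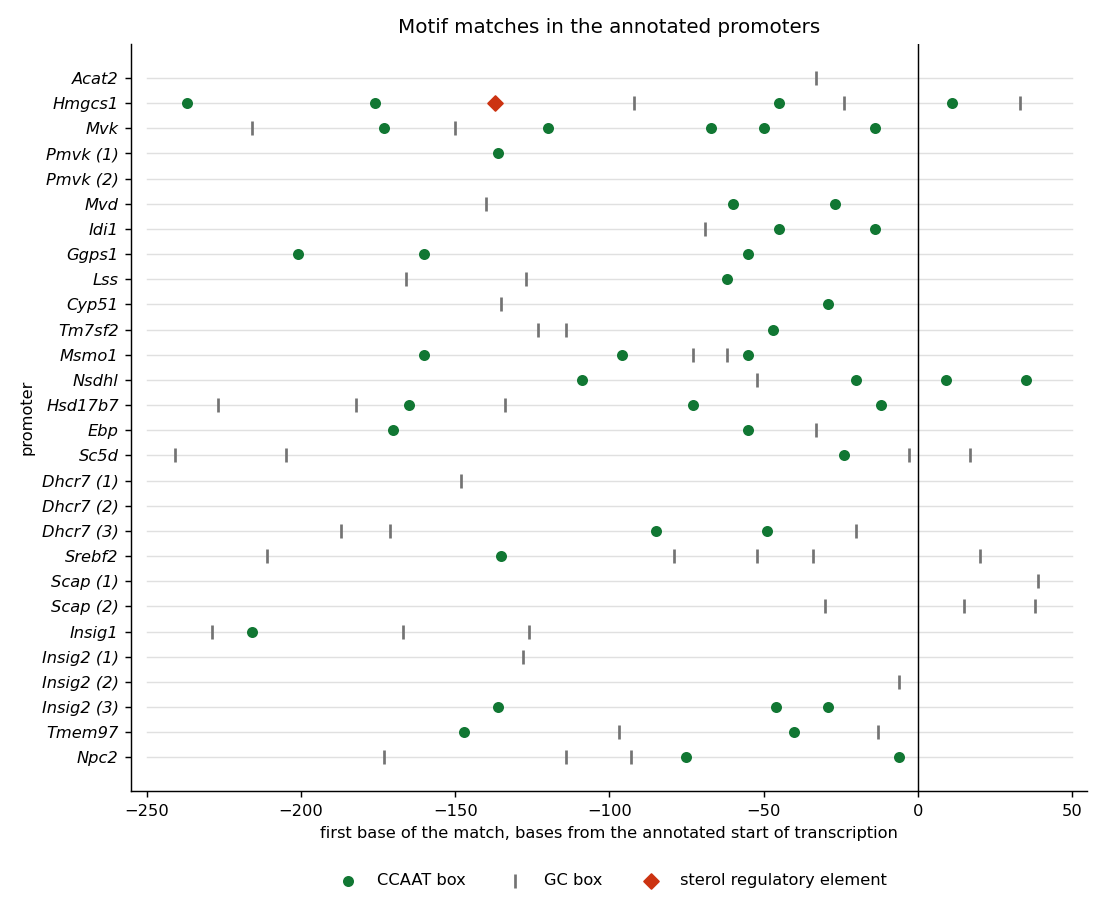
Position of each motif match (horizontal axis, bases from the annotated start of transcription at 0) in the 28 promoters of 22 genes (rows, numbered where a gene has more than 1). Green dots are CCAAT boxes, grey ticks GC boxes and the red diamond the sterol regulatory element of Hmgcs1. Of the 44 CCAAT boxes, 32 begin between positions -150 and -1, a share not taken over other promoters.

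The enzymes that make mevalonate and its activated forms were all below Ctrl, with a median log2 ratio of -1.06 on day 3 and -0.65 on day 0. Acat2, the cytosolic thiolase that joins acetyl-CoA units (gene ID 110460, chromosome 17, 12943042 to 12960725, GRCm38.p6), measured 29.1 CPM in iKO cells against 84.4 CPM in Ctrl cells on day 3. In growth medium it measured 82.9 CPM in iKO cells against 169.5 CPM in Ctrl cells. It was thus 2.90-fold lower (2.63 to 3.20) on day 3 and 2.04-fold lower (1.93 to 2.17) on day 0. Only 2.06% of all genes had a lower ratio than Acat2 on day 3, and 0.247% on day 0. Parts of Acat2 match Acat3, a near copy, and Tcp1. Acat3 measured 2.71 CPM in iKO cells against 4.48 CPM in Ctrl cells on day 3 and below 1 CPM in both on day 0, far under Acat2. Tcp1 had log2 ratios of -0.25 on day 3 and -0.49 on day 0, and how reads were split among these genes was not tested.

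Hmgcs1, which makes HMG-CoA (gene ID 208715, chromosome 13, 119690351 to 119708260), had the highest level per length of the 27 genes in every library. It measured 592 CPM in iKO cells against 1267 CPM in Ctrl cells on day 3, 2.14-fold lower (2.09 to 2.19). The day 0 level was 828 CPM in iKO cells against 1297 CPM in Ctrl cells, 1.57-fold lower (1.54 to 1.60). Ctrl cells thus held nearly the same level at both days, while the iKO level was lower on day 3. Mvd, the decarboxylase that ends the mevalonate steps (gene ID 192156, chromosome 8, 122433596 to 122443422), measured 31.2 CPM in iKO cells against 66.3 CPM in Ctrl cells on day 3, 2.13-fold lower (1.93 to 2.35). Before withdrawal it measured 47.2 CPM in iKO cells against 84.4 CPM in Ctrl cells, 1.79-fold lower (1.66 to 1.94). The promoters of both genes are among those printed above.

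The 2 kinases between them differed less by summed transcripts. Mvk, mevalonate kinase, measured 34.5 CPM in iKO cells against 57.1 CPM in Ctrl cells on day 3, 1.65-fold lower (1.501 to 1.82). Its level in growth medium was 61.3 CPM in iKO cells against 82.5 CPM in Ctrl cells, 1.35-fold lower (1.25 to 1.45). On the most abundant transcript alone the log2 ratio of Mvk on day 3 was -1.20, past 2-fold. Pmvk, phosphomevalonate kinase (chromosome 3, 89454541 to 89469014, near Fdps), measured 21.5 CPM in iKO cells against 33.1 CPM in Ctrl cells on day 3, and 32.9 CPM in iKO cells against 50.7 CPM in Ctrl cells on day 0. It was 1.54-fold lower on each day, with intervals of 1.36 to 1.75 on day 3 and 1.40 to 1.69 on day 0.

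Of the isoprenoid enzymes, 2 were far below Ctrl and 1 was close to it. Idi1, the isomerase of the isoprenoid units (gene ID 319554, chromosome 13, 8885606 to 8892396), measured 10.9 CPM in iKO cells against 36.6 CPM in Ctrl cells on day 3. On day 0 it reached 37.0 CPM in iKO cells against 64.3 CPM in Ctrl cells. Its ratio on day 3, 3.34-fold lower (2.86 to 3.91), was the lowest of the 27 genes, and on day 0 it was 1.73-fold lower (1.59 to 1.90). Fdps, which joins the units to farnesyl diphosphate (gene ID 110196, chromosome 3, 89093588 to 89101967), measured 51.5 CPM in iKO cells against 124 CPM in Ctrl cells on day 3, 2.41-fold lower (2.23 to 2.59). With growth factors present it measured 181 CPM in iKO cells against 335 CPM in Ctrl cells, 1.85-fold lower (1.78 to 1.92). Both genes have processed pseudogenes of over 90% identity that have no row in the files, so reads of these copies may count as Idi1 or Fdps.

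Ggps1, which lengthens farnesyl to geranylgeranyl diphosphate for protein prenylation, sits on a side branch. It measured 51.2 CPM in iKO cells against 57.6 CPM in Ctrl cells on day 3, 1.12-fold lower (1.03 to 1.23). The growth medium libraries gave 51.9 CPM in iKO cells against 52.7 CPM in Ctrl cells, 1.02-fold lower with an interval of 0.933 to 1.10 that spans equality. It was the enzyme closest to Ctrl on day 0.

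The 3 enzymes from squalene to lanosterol had a median log2 ratio of -0.98 on day 3 and -0.70 on day 0. Lss, lanosterol synthase (gene ID 16987, chromosome 10, 76531565 to 76557139), measured 74.4 CPM in iKO cells against 205 CPM in Ctrl cells on day 3, 2.76-fold lower (2.59 to 2.93). In growth medium it measured 128 CPM in iKO cells against 259 CPM in Ctrl cells, 2.03-fold lower (1.94 to 2.12). Lss and Acat2 were the 2 genes past 2-fold at both days. On day 0 both calls were lost with library totals, at log2 ratios of -0.885 for Lss and -0.895 for Acat2, with FPKM and with 5 CPM added. Fdft1, squalene synthase (gene ID 14137, chromosome 14, 63145150 to 63181687), measured 83.0 CPM in iKO cells against 165 CPM in Ctrl cells on day 3, 1.99-fold lower (1.87 to 2.11). The day 0 level was 148 CPM in iKO cells against 242 CPM in Ctrl cells, 1.63-fold lower (1.56 to 1.70).

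Exons of Fdft1 overlap exons of Ctsb on the opposite strand, and the sources used here do not say whether counting used strand. Ctsb, a lysosomal protease gene, went the other way, with 889 CPM in iKO cells against 522 CPM in Ctrl cells on day 3, and 348 CPM in iKO cells against 244 CPM in Ctrl cells on day 0. Sqle, squalene epoxidase and a rate-limiting step, differed less than its neighbours. It measured 198 CPM in iKO cells against 268 CPM in Ctrl cells on day 3, 1.35-fold lower (1.30 to 1.41), and 276 CPM in iKO cells against 398 CPM in Ctrl cells on day 0, 1.45-fold lower (1.40 to 1.496).

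The 8 enzymes that turn lanosterol into cholesterol were also all below Ctrl, but none reached 2-fold at either day with TMM scaling. Dhcr7 did on day 3 with library totals and with FPKM, at log2 ratios of -1.001 and -1.02. Their median log2 ratio was -0.66 on day 3 and -0.58 on day 0. By contrast 6 of the 11 enzymes up to lanosterol were at least 2-fold lower on day 3, where those 11 had medians of -1.06 on day 3 and -0.70 on day 0. Of these 6, Mvd alone shares no exon or near-identical sequence with another annotated gene, so the contrast between early and late steps rests largely on genes whose reads could be shared.

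Among the late enzymes Dhcr7, which makes the final reduction in one branch of the pathway (gene ID 13360, chromosome 7, 143823167 to 143848410), had the lowest ratio at both days by summed transcripts. It measured 86.0 CPM in iKO cells against 164 CPM in Ctrl cells on day 3, 1.90-fold lower (1.79 to 2.02). Before withdrawal it measured 170 CPM in iKO cells against 284 CPM in Ctrl cells, 1.67-fold lower (1.60 to 1.74). The leading of its 7 transcript models held 68.3% of its counts in iKO and 38.1% in Ctrl on day 3, and on that model alone the log2 ratio was -0.10, so its size on day 3 depends on the transcripts counted. Cyp51, the lanosterol demethylase, measured 125 CPM in iKO cells against 217 CPM in Ctrl cells on day 3, and 217 CPM in iKO cells against 337 CPM in Ctrl cells on day 0. It was 1.73-fold lower (1.65 to 1.82) on day 3 and 1.55-fold lower (1.49 to 1.61) on day 0. Tm7sf2, a sterol C14 reductase, measured 18.9 CPM in iKO cells against 33.6 CPM in Ctrl cells on day 3, 1.78-fold lower (1.57 to 2.03). Its level in growth medium was 21.4 CPM in iKO cells against 29.9 CPM in Ctrl cells, 1.39-fold lower (1.23 to 1.58).

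Msmo1 and Nsdhl, which take part in removal of the C4 methyl groups, had similar ratios at both days. Msmo1 measured 123 CPM in iKO cells against 194 CPM in Ctrl cells on day 3, 1.58-fold lower (1.501 to 1.66), and 187 CPM in iKO cells against 306 CPM in Ctrl cells on day 0, 1.64-fold lower (1.57 to 1.70). Nsdhl measured 58.9 CPM in iKO cells against 94.3 CPM in Ctrl cells on day 3, 1.60-fold lower (1.49 to 1.72), and 94.7 CPM in iKO cells against 151 CPM in Ctrl cells on day 0, again 1.60-fold lower (1.51 to 1.69). Hsd17b7, the reductase of the same complex, was closer to Ctrl. It measured 30.2 CPM in iKO cells against 38.6 CPM in Ctrl cells on day 3, 1.28-fold lower (1.15 to 1.43), and 58.4 CPM in iKO cells against 80.2 CPM in Ctrl cells on day 0, 1.37-fold lower (1.28 to 1.48).

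Sc5d, which sets the C5 double bond, measured 123 CPM in iKO cells against 168 CPM in Ctrl cells on day 3, 1.37-fold lower (1.30 to 1.45). On day 0 it reached 103 CPM in iKO cells against 148 CPM in Ctrl cells, 1.44-fold lower (1.37 to 1.53). Ebp, the sterol isomerase, measured 8.96 CPM in iKO cells against 9.45 CPM in Ctrl cells on day 3, from 169 and 190 counts. At that depth its ratio, 1.06-fold lower with an interval of 0.853 to 1.31, did not exclude equality. The day 0 level of Ebp was 21.2 CPM in iKO cells against 27.1 CPM in Ctrl cells, 1.28-fold lower (1.13 to 1.45).

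**Figure D3:**
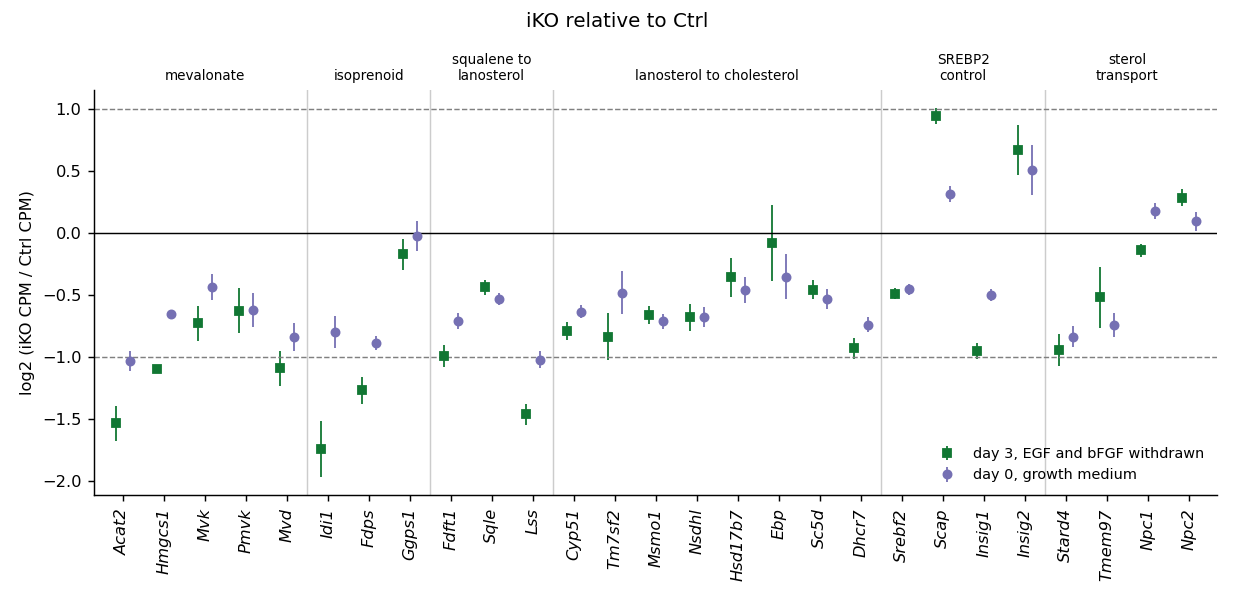
Log2 of iKO CPM over Ctrl CPM (vertical axis, no CPM added) for each of the 27 genes in pathway order, on day 3 (green squares, left of each pair) and day 0 (purple dots, right). Bars are 95% intervals of counting error from 1 library per group and dashed lines mark 2-fold. All 19 enzymes lie below 0 at both days, while Scap, Insig2 and Npc2 lie above 0 at both.

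The genes that govern SREBP2 did not move as 1 block: Srebf2 and Insig1 were lower in iKO, and Scap and Insig2 were higher by the counts summed over transcripts. Srebf2, the gene of SREBP2 itself (gene ID 20788, chromosome 15, 82147269 to 82205379), measured 344 CPM in iKO cells against 482 CPM in Ctrl cells on day 3, 1.40-fold lower (1.36 to 1.45). With growth factors present it measured 400.4 CPM in iKO cells against 548 CPM in Ctrl cells, 1.37-fold lower (1.33 to 1.41). Insig1, a retention protein whose gene is itself an SREBP target (gene ID 231070, chromosome 5, 28071412 to 28078662), measured 144 CPM in iKO cells against 279 CPM in Ctrl cells on day 3, 1.93-fold lower (1.85 to 2.03). The growth medium libraries gave 298 CPM in iKO cells against 421 CPM in Ctrl cells, 1.41-fold lower (1.37 to 1.46).

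Scap, the sterol-sensing escort of SREBP2 (gene ID 235623, chromosome 9, 110333288 to 110384949), had the highest ratio of the 27 genes on day 3. It measured 302 CPM in iKO cells against 156 CPM in Ctrl cells on day 3, 1.93-fold higher (1.85 to 2.02). In growth medium it measured 200.4 CPM in iKO cells against 161 CPM in Ctrl cells, 1.25-fold higher (1.19 to 1.30). Of all genes, 92.8% had a lower ratio on day 3 and 80.9% on day 0. The 3 library values other than iKO on day 3 lay within 156 and 200.4 CPM. Another annotated gene model on the opposite strand covers 13.2% of the exon bases of Scap and has no row in the files.

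Insig2, the second retention protein (gene ID 72999), measured 26.6 CPM in iKO cells against 16.7 CPM in Ctrl cells on day 3, 1.59-fold higher (1.38 to 1.84). The day 0 level was 23.4 CPM in iKO cells against 16.5 CPM in Ctrl cells, 1.42-fold higher (1.24 to 1.64). Its direction depended on which transcripts were counted. The leading transcript model held 48.9% of its counts in iKO and 78.2% in Ctrl on day 3, and 42.2% in iKO and 90.9% in Ctrl on day 0. On that model alone the log2 ratio was -0.02 on day 3 and -0.54 on day 0, so no direction is given for Insig2.

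Of the sterol carriers, Stard4 and Tmem97 were lower in iKO at both days. Stard4, a cytosolic cholesterol carrier (gene ID 170459), measured 39.5 CPM in iKO cells against 75.9 CPM in Ctrl cells on day 3, 1.92-fold lower (1.76 to 2.10). Before withdrawal it measured 83.0 CPM in iKO cells against 148 CPM in Ctrl cells, 1.79-fold lower (1.68 to 1.89). Tmem97, the sigma-2 receptor and a binding partner of NPC1 (gene ID 69071), measured 11.8 CPM in iKO cells against 16.9 CPM in Ctrl cells on day 3, 1.43-fold lower (1.20 to 1.70). Its level in growth medium was 63.5 CPM in iKO cells against 106 CPM in Ctrl cells, 1.67-fold lower (1.56 to 1.79).

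Npc1 and Npc2, which pass cholesterol out of the lysosome, did not share that direction. Npc1 (gene ID 18145) measured 290 CPM in iKO cells against 320 CPM in Ctrl cells on day 3, 1.10-fold lower (1.06 to 1.14). On day 0 it reached 199 CPM in iKO cells against 175 CPM in Ctrl cells, 1.14-fold higher (1.09 to 1.19). Npc2 (gene ID 67963) measured 189 CPM in iKO cells against 155 CPM in Ctrl cells on day 3, 1.22-fold higher (1.16 to 1.28). With growth factors present it measured 140.2 CPM in iKO cells against 131 CPM in Ctrl cells, 1.07-fold higher (1.01 to 1.13). These 4 differences are small beside those of most enzymes, and the intervals hold no spread between cultures.

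Per transcript length, in FPKM, levels among the 27 genes differed by 44.2-fold in iKO and 66.2-fold in Ctrl on day 3, and by 24.9-fold in iKO and 56.1-fold in Ctrl on day 0. Hmgcs1 was highest throughout, at 162 FPKM in iKO and 368 FPKM in Ctrl on day 3, and 249 FPKM in iKO and 357 FPKM in Ctrl on day 0. Behind it on day 0 came Fdps in both genotypes, at 155 FPKM in iKO and 261 FPKM in Ctrl. On day 3 the next gene was Sqle in iKO, at 69.3 FPKM, and Msmo1 in Ctrl, at 109 FPKM. The lowest gene was Idi1 in iKO (3.67 FPKM) and Ebp in Ctrl (5.56 FPKM) on day 3. On day 0 it was Insig2, at 10.01 FPKM in iKO and 6.36 FPKM in Ctrl. Fdps was the second highest of the 27 genes on day 0, while on day 3 it stood at rank 9 in iKO and rank 4 in Ctrl. Scap stood at rank 3 in iKO and rank 16 in Ctrl on day 3, and at rank 10 in iKO and rank 19 in Ctrl on day 0.

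**Figure D4:**
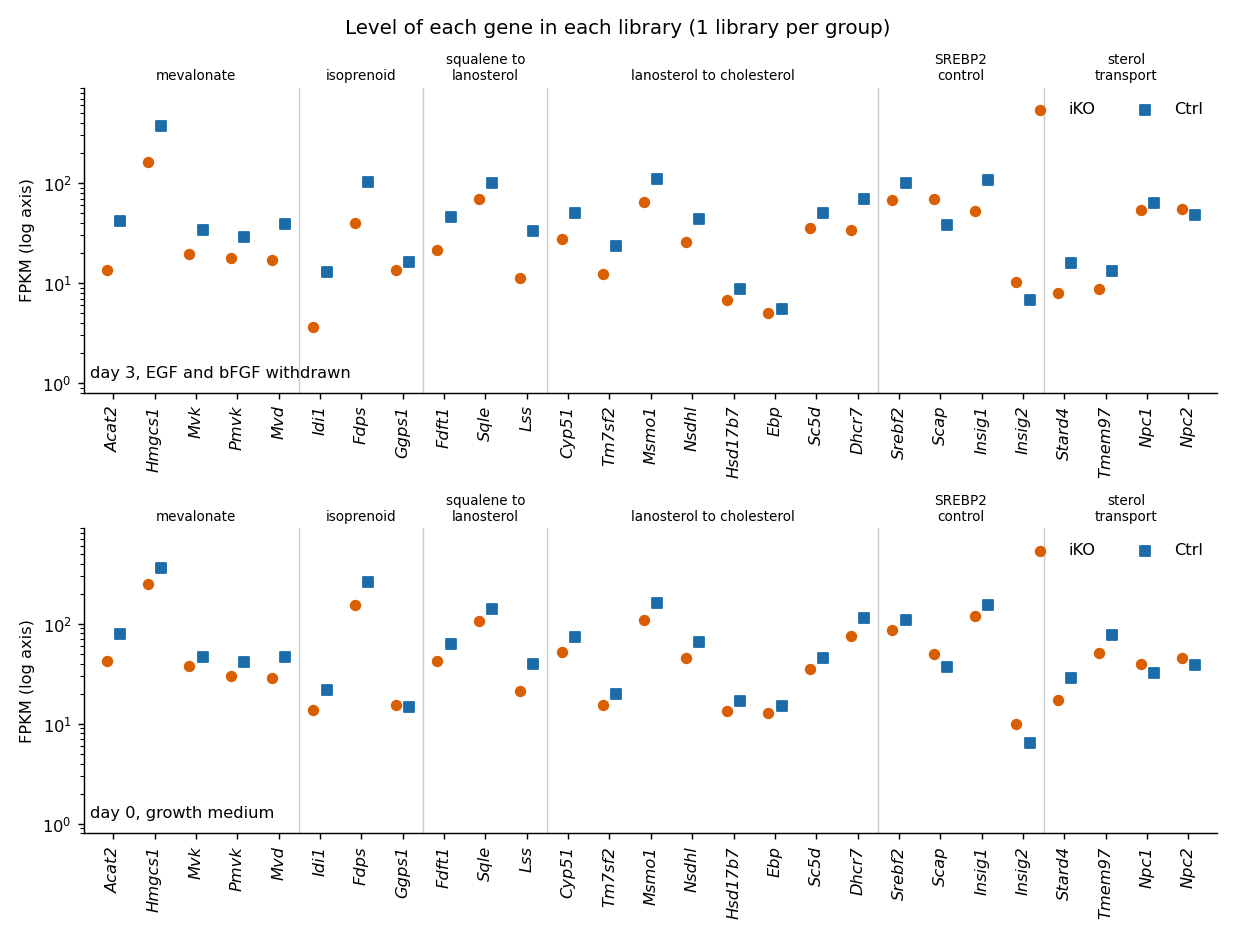
Level per transcript length (vertical axis, FPKM, log scale) of each of the 27 genes in pathway order on day 3 (top) and day 0 (bottom), in iKO (orange circles) and Ctrl (blue squares), 1 library each. Hmgcs1 is highest in every library, from 162 FPKM in iKO on day 3 to 368 FPKM in Ctrl on day 3, and the orange circles lie below the blue squares for most genes.

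After growth factor withdrawal most of the 27 genes were lower in both genotypes, 20 of them in both. In iKO, 22 of 27 were lower on day 3 than on day 0, against 50.4% of all genes, with a median log2 ratio of -0.68. In Ctrl, 21 of 27 were lower, against 50.9%, with a median of -0.57. The medians of all genes were -0.01 in iKO and -0.02 in Ctrl. At least 2-fold lower were 7 of 27 in iKO, against 11.5% of all genes, and 4 of 27 in Ctrl, against 15.1%, the last share close to that of all genes. None was at least 2-fold higher, against 11.2% of all genes in iKO and 14.6% in Ctrl. At 1.5-fold, 16 were lower and 1 higher in iKO, against 21.9% and 21.5%. The same limit took 13 lower and 1 higher in Ctrl, against 26.7% and 25.8%. These comparisons share their libraries with the genotype comparisons above. Marker lists differed between the same libraries: all 13 proliferation genes were at least 2-fold lower on day 3, with medians of -3.54 in iKO and -4.10 in Ctrl. Of 10 astrocyte genes 8 were at least 2-fold higher in iKO and 9 in Ctrl, with medians of 3.20 in iKO and 3.36 in Ctrl. Of 12 oligodendrocyte lineage genes 2 were at least 2-fold higher in iKO and 9 in Ctrl, and 3 were lower in iKO and 0 in Ctrl. Their median was 0.12 in iKO and 1.66 in Ctrl. The part of these lists in the change of the 27 genes between days was not tested.

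Tmem97 had the lowest day ratio in both genotypes, at 11.8 CPM on day 3 and 63.5 CPM on day 0 in iKO, 5.38-fold lower (4.66 to 6.22). In Ctrl it was at 16.9 CPM on day 3 and 106 CPM on day 0, 6.28-fold lower (5.60 to 7.07). Fdps was 3.52-fold lower (3.28 to 3.78) on day 3 in iKO and 2.70-fold lower (2.58 to 2.83) in Ctrl. Idi1 was 3.37-fold lower (2.89 to 3.95) in iKO and 1.75-fold lower (1.60 to 1.92) in Ctrl. Ebp was 2.37-fold lower (1.98 to 2.85) in iKO and 2.87-fold lower (2.43 to 3.40) in Ctrl, and Hsd17b7 was 1.94-fold lower (1.75 to 2.14) in iKO and 2.08-fold lower (1.91 to 2.27) in Ctrl. Acat2 was 2.85-fold lower (2.59 to 3.14) in iKO and 2.01-fold lower (1.90 to 2.13) in Ctrl. Its log2 ratio in Ctrl after adding 1 CPM, -0.999, is just short of the limit. Insig1 was 2.07-fold lower (1.98 to 2.16) in iKO and 1.51-fold lower (1.46 to 1.56) in Ctrl. Stard4 was 2.10-fold lower (1.93 to 2.29) in iKO and 1.95-fold lower (1.84 to 2.08) in Ctrl. The intervals cover counting error only, and whether day ratios differed between genotypes was not tested.

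A few genes were higher on day 3 or level with day 0. Sc5d was 1.19-fold higher (1.13 to 1.27) in iKO and 1.13-fold higher (1.08 to 1.19) in Ctrl. Npc1 was 1.46-fold higher (1.40 to 1.52) in iKO and 1.83-fold higher (1.75 to 1.90) in Ctrl, and Npc2 was 1.35-fold higher (1.28 to 1.42) in iKO and 1.18-fold higher (1.12 to 1.24) in Ctrl. Hmgcs1 was 1.40-fold lower (1.37 to 1.43) in iKO and 1.02-fold lower (1.01 to 1.04) in Ctrl, a direction that turned in Ctrl with library totals, FPKM or the leading transcript alone. Scap was 1.51-fold higher (1.45 to 1.57) in iKO, while its ratio in Ctrl was 0.972 (0.925 to 1.02). On the leading Scap transcript alone the log2 ratio of day 3 to day 0 was -0.16 in iKO and -0.53 in Ctrl, so the day direction of Scap depended on the transcript counted. Its direction against Ctrl did not, at 0.72 on day 3 and 0.35 on day 0 on that transcript.

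**Figure D5:**
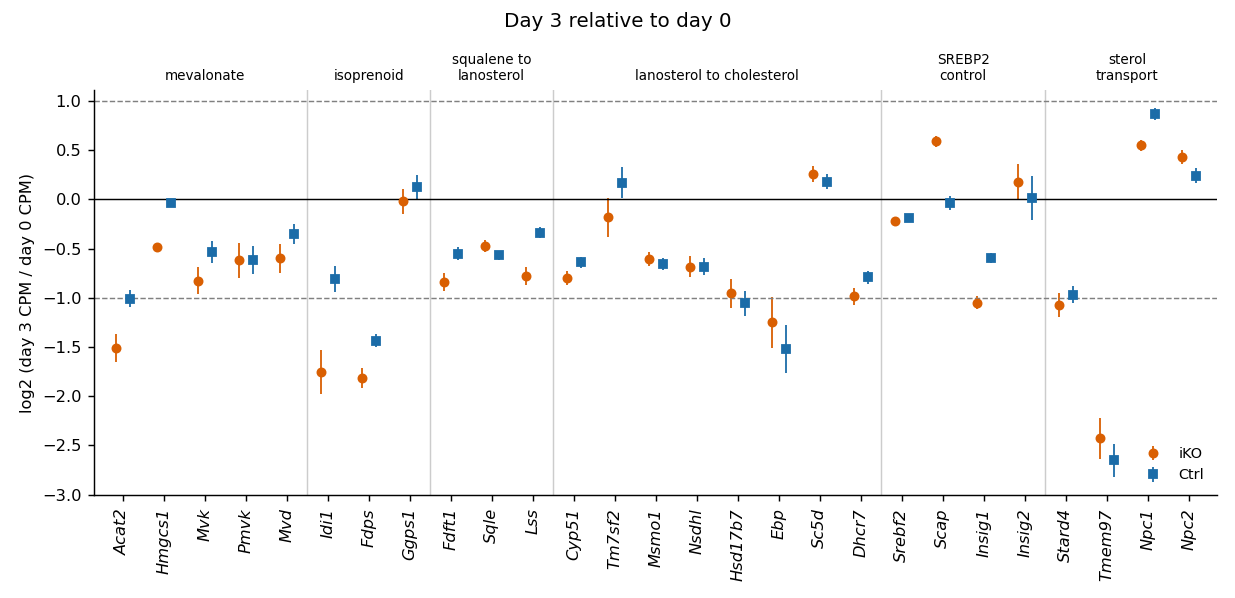
Log2 of day 3 CPM over day 0 CPM (vertical axis, no CPM added) for each of the 27 genes in pathway order, in iKO (orange circles, left of each pair) and Ctrl (blue squares, right). Bars are 95% intervals of counting error from 1 library per group and dashed lines mark 2-fold. Tmem97 lies lowest, at 5.38-fold lower in iKO and 6.28-fold lower in Ctrl, and Npc1, Npc2 and Sc5d lie above 0 in both.

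The log2 ratio of iKO to Ctrl was lower on day 3 than on day 0 for 16 of the 27 genes, against 44.3% of all genes. The median difference was -0.15, against 0.06 for all genes. No gene differed by -1 or lower, against 5.5% of all genes, or by 1 or higher, against 3.71%. Idi1 had the lowest difference, -0.88, followed by Acat2 at -0.48. Hmgcs1 and Insig1 stood at -0.45 and Lss at -0.44. Scap had the highest, 0.63. Of the 11 enzymes up to lanosterol 9 had a lower ratio on day 3, and of the 8 later enzymes 3 did. With library totals or FPKM these were 11 of 11 and 7 of 8, so these counts depend on the scaling. The median difference of all genes moved as well, from 0.06 to -0.13 with library totals and to -0.11 with FPKM. With 1 library in each of the 4 groups, this difference could not be tested. Without the 12 genes that share sequence or exons with others the median difference was 0.0049, so the sign of the median rests on those genes.

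Other genes of cholesterol biology were described from lists drawn up with the group. Of 13 further pathway genes 12 were compared. On day 3, 2 of them were at least 2-fold lower, against 4.78% of all genes, and 0 higher, against 6.28%. On day 0, 0 of the 12 passed in either direction, against 0.331% lower and 2.67% higher. Their median log2 ratio was -0.64 on day 3 and -0.57 on day 0. Lrp8, a receptor for ApoE and reelin, measured 43.8 CPM in iKO cells against 132 CPM in Ctrl cells on day 3, 3.01-fold lower (2.78 to 3.26). The growth medium libraries gave 76.6 CPM in iKO cells against 119 CPM in Ctrl cells, 1.55-fold lower (1.45 to 1.65). Acss2, which makes acetyl-CoA from acetate, measured 54.4 CPM in iKO cells against 86.7 CPM in Ctrl cells on day 3, 1.59-fold lower (1.47 to 1.72). In growth medium it measured 51.1 CPM in iKO cells against 90.5 CPM in Ctrl cells, 1.77-fold lower (1.64 to 1.91).

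Genes of sterol export, many of them targets of the sterol-activated receptor LXR, went the other way. Of 12 listed, 10 were compared, with medians of 0.48 on day 3 and 0.65 on day 0. All 10 were above Ctrl on day 0, while 56.5% of all genes were below it. At least 2-fold higher were 1 on day 3, against 6.28% of all genes, and 3 on day 0, against 2.67%. The count on day 3 is close to the share of all genes. At least 2-fold lower were 0 on either day, against 4.78% on day 3 and 0.331% on day 0. Abca1, which exports cholesterol to lipoproteins, measured 771 CPM in iKO cells against 353 CPM in Ctrl cells on day 3, 2.18-fold higher (2.12 to 2.25). The day 0 level was 144 CPM in iKO cells against 25.8 CPM in Ctrl cells, 5.57-fold higher (5.07 to 6.12). Apoe, the main apolipoprotein of the brain, measured 12096 CPM in iKO cells against 6765 CPM in Ctrl cells on day 3, 1.79-fold higher (1.78 to 1.80). Before withdrawal it measured 656 CPM in iKO cells against 138 CPM in Ctrl cells, 4.75-fold higher (4.56 to 4.95). Apoe is also an astrocyte marker, and the astrocyte list was higher in iKO too. Nr1h3, which encodes LXR alpha, measured 4.03 CPM in iKO cells against 1.69 CPM in Ctrl cells on day 3, 2.38-fold higher (1.57 to 3.68), and its log2 ratio of 0.90 after adding 1 CPM is below the limit.

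Lists next to the pathway had medians closer to equality than the 27 genes. Of all genes, 4.78% were at least 2-fold lower and 6.28% higher on day 3, and 0.331% and 2.67% on day 0. Of 14 genes that use isoprenoids, for dolichol, coenzyme Q and prenylation, 0 passed 2-fold at either day, with medians of 0.08 on day 3 and -0.20 on day 0. Coq2, a coenzyme Q enzyme, had log2 ratios of 0.55 on day 3 and -0.45 on day 0. Of 10 genes of sterol-sensing degradation in the endoplasmic reticulum 0 passed 2-fold, with medians of 0.16 on day 3 and -0.02 on day 0. Erlin1, a scaffold protein of that list, had log2 ratios of -0.39 on day 3 and -0.55 on day 0. Of 14 genes of lysosomal cholesterol handling 2 were at least 2-fold higher on day 3, and 0 passed on day 0. The 2 were Nceh1, by 2.71-fold (2.45 to 3.002), and Osbpl1a, by 2.29-fold (2.17 to 2.42). The lysosomal list had medians of 0.16 on day 3 and 0.30 on day 0. Above Ctrl were 9 of the 14 on day 3 and 11 on day 0, while 51.3% and 56.5% of all genes were below it. At 1.5-fold, 4 were higher and 1 lower on day 3, against 15.1% and 11.3% of all genes. Of 10 genes of fatty acid synthesis, which SREBP1 governs, 1 passed 2-fold on day 3, Acacb, which was 2.66-fold higher (2.09 to 3.42). Fasn, the fatty acid synthase, measured 634 CPM in iKO cells against 1163 CPM in Ctrl cells on day 3, 1.83-fold lower (1.79 to 1.87). Its level in growth medium was 885 CPM in iKO cells against 1063 CPM in Ctrl cells, 1.20-fold lower (1.18 to 1.22). The fatty acid list had medians of -0.37 on day 3 and -0.26 on day 0. Below Ctrl were 7 of its 10 genes on day 3, against 51.3% of all genes, and 8 on day 0, against 56.5%. At 1.5-fold, 3 of its genes were lower and 1 higher on day 3, against 11.3% and 15.1% of all genes.

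The authors' deposited table of differential genes on day 3 lists 1774 genes, 863 of them lower in iKO, and holds 9 of the 27 genes, all lower. These are Acat2, Hmgcs1, Mvd, Idi1, Fdps, Fdft1, Lss, Dhcr7 and Insig1. In the authors' deposited table their log2 ratios run between -1.82 for Idi1 and -1.03 for Insig1. Each of the 9 was within 0.005 of the log2 ratio of summed FPKM. That table and the counts come from the same 2 libraries. Beside the 1774 listed genes, the series held 17621 genes in all. The filter behind the authors' list is not stated in the sources used here. The authors' table for day 0 breaks off after 102 complete rows, and 0 of the 27 genes are among these.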

How the data were processed

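Total RNA of 4 cultures, 1 per group, was sequenced with a BGI library kit, per the labels' protocols. The submitters' processing notes list HISAT, Bowtie2, StringTie and the build mm10. The authors deposited, per RefSeq transcript (55122 in each library), an expected count with decimals and an expression value. The sources used here do not state the counting tool, the strand setting or any filter. The header does not name the unit of the deposited expression value, which was treated as FPKM since count, value and transcript length stood in one ratio throughout a library. For day 3 the authors' deposited table gives log2 ratios for iKO over Ctrl. Its p-value (FDR) column, per the file headers, was not used, since it compares 2 libraries.

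For each of 17621 genes, expected counts of all transcripts were added and rounded. Scaling used TMM (edgeR 4.0.16, R 4.3.3), with factors of 0.962 for iKO and 1.02 for Ctrl at day 3 and 1.06 for iKO and 0.966 for Ctrl at day 0. The log2 ratio was taken after adding 1 CPM, which understates ratios of low genes. A minimum mean of 1 CPM left 12976 genes for comparison and kept all 27 described here. Intervals are exact conditional Clopper-Pearson 95% intervals of rounded counts (scipy 1.17.1), checked on simulated data, and cover counting error only, since reads are not independent molecules. No test across conditions was run, since each group has 1 library. Groups came from the sample titles and genotype labels. Shared sequence was taken from exon overlap in the annotation and from BLAST 2.17.0 matches of at least 90% identity over at least 200 bases. Promoters came from RefSeq, build GRCm38.p6.

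The 27 genes and all lists were chosen with earlier results of these data known. All 27 were named, and from each other list the 2 genes with the largest ratio at each day were taken as candidates, with any gene past 2-fold in lists of up to 10. The text gives part of these, and a few listed genes are not reported here. Alternatives were scaling by library totals or by DESeq2 (1.42.0) factors, FPKM in place of counts, pseudocounts of 0.1 and 5 CPM, a minimum of 0 or 5 CPM, the most abundant transcript alone, leaving out genes that share sequence, and a limit of 1.5-fold.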

Additional observations from a re-analysis of the deposited data

Results flagged for a closer look

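Npc1 was flagged because its ratio lay on opposite sides of equality on the 2 days, with both intervals clear of 1. The log2 ratio of iKO to Ctrl was -0.14 on day 3, from 290 CPM in iKO and 320 CPM in Ctrl, and 0.18 on day 0, from 199 CPM in iKO and 175 CPM in Ctrl. The sign on each day held under every alternative that kept the gene. Of all genes, 38.7% had a lower ratio than Npc1 on day 3 and 73.0% on day 0, so neither ratio was extreme. Below Ctrl were 51.3% of all genes on day 3 and 56.5% on day 0, but 36.9% on both days, so a change of side was common. The leading of 2 Npc1 transcript models held 68.5% of the counts in iKO and 76.3% in Ctrl on day 3, and 90.2% in iKO and 73.8% in Ctrl on day 0. With 1 library in each group the difference between the days was not tested.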

How the results depend on the processing

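Of 125 medians and counts recomputed under 10 alternatives, 103 stayed within the limits set for a change. Of 1155 ratios of single genes, 229 moved past their limits. The limit was a change of up to 1.5-fold for a count, and the counting error for a median or a ratio. A minimum of 0 or 5 CPM could not alter any value of the 27 genes, since all averaged above 5 CPM. Leaving out genes could not alter the ratios of those kept. Part of the unchanged values was thus fixed in advance, and the tallies overstate how far the results held. Library totals moved the median of all genes by over 0.1 on day 0, to 0.06, and between days in iKO, to -0.14, and to -0.09 on day 3. With them the medians of the 27 genes were -0.48 on day 0, -0.81 between days in iKO and -0.35 for the difference of the ratios. With FPKM they were -0.47 on day 0, -0.49 between days in Ctrl and -0.34 for the difference. The median of all genes for that difference was -0.13 with library totals and -0.11 with FPKM. The number at least 2-fold lower on day 0 was 0, in place of 2, with library totals, with FPKM, with 5 CPM added and without the 12 genes that share sequence. On day 3 it was 10 with library totals and 1 without those 12 genes. Between days it was 3 in iKO and 2 in Ctrl without them, and the median difference of the ratios turned to 0.0049. At 1.5-fold the lower counts were 16 on day 3, 14 on day 0, 16 between days in iKO and 13 in Ctrl, and the higher counts were 2 on day 3, 1 between days in iKO and 1 in Ctrl. The causes were not tested. Signs of single genes turned under some setting for Insig2 on day 3, for Ggps1 and Insig2 on day 0, for Scap between days in iKO and for Ggps1, Hmgcs1, Insig2 and Scap between days in Ctrl, and for 10 genes in the difference of the ratios. No paired analysis was possible because the labels give no replicate numbers that groups share, and a model with genotype and day as terms was not fitted. Depth limits Ebp most, at 169 to 551 counts.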
